A study of Danio rerio with 16 samples.

Results

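The respiratory chain passes electrons from nutrients to oxygen through 4 protein complexes in the inner mitochondrial membrane and uses the energy to pump protons across it. ATP synthase lets the protons flow back and makes ATP. Most subunits are encoded in the nucleus, translated in the cytosol and imported. The mitochondrial genome (mt- genes) encodes a few core subunits of complexes I, III and IV and of ATP synthase, and its transcripts stay inside mitochondria. The heart muscle cell, or cardiomyocyte, lives mainly on this pathway.

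The genes described here are 46 listed nuclear genes of the respiratory chain and ATP synthase of the zebrafish, matched by symbol; their values played no part in the matching rule. A row was found for 45 of them among 24753 gene symbols shared by the 4 deposited gene tables, and no row carried the symbol ndufa4a. They comprise 14 genes of complex I, 4 of complex II, 5 of complex III, 1 gene for cytochrome c, 14 found of 15 listed for complex IV and 7 of ATP synthase.

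Single-nucleus RNA-seq was run on whole adult zebrafish hearts that were wild type (WT) or homozygous for the cited4a allele pt38a (mutant). Hearts were uninjured or taken at 3 days post amputation of roughly 20% of the ventricle (injured; UI and 3 dpa in the plots), an injury that zebrafish repair by regrowing heart muscle. The labels list 16 samples, 4 per group with names ending in lane-like numbers, and 1 count matrix is deposited per group. The number of fish behind a matrix, their age and their strain are not stated in these sources. Each group is therefore 1 sample: no test was possible, and every interval below is a 95% interval for counting error only. The mutant and WT matrices were also counted on gene tables of different length, 27758 and 25432 genes, so genotype and counting reference cannot be told apart in any WT to mutant comparison. The shared genes held at least 99.9% of the UMIs of both WT matrices and 90.3% and 90.8% of those of the mutant matrices, so CPM over shared genes is raised in the mutant relative to CPM over all genes.

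Levels are UMI counts brought to CPM, the same total for every library, over the 24753 shared symbols. A UMI counts 1 captured molecule, and levels were not divided by gene length. Whether gene length affects levels compared between genes was not tested. Nuclei were kept at 500 or more UMIs and at most 5% mitochondrial UMIs, which left 8178 in uninjured WT, 10394 in injured WT, 9932 in uninjured mutant and 9140 in injured mutant. Each matrix was then split at its own median share of UMIs from ttn.1, ttn.2, ryr2b, myl7 and tnnt2a, 5 cardiomyocyte genes. The cardiomyocyte-richer nuclei held 4089, 5196, 4966 and 4570 nuclei and between 5945354 and 13182251 UMIs. They are a mixture, not a sorted cell type. Cardiomyocyte markers that were not used in the split made up 3.83%, 2.53%, 2.27% and 2.63% of their UMIs, against 2.73%, 0.637%, 1.29% and 2.25% in the cardiomyocyte-poorer nuclei. By these markers the split was widest in injured WT and narrowest in injured mutant. The median shares at the cut were 5.07%, 1.85%, 1.97% and 2.88% in the same order. The poorer nuclei of uninjured WT held more of these markers than the richer nuclei of any other library. Richer and poorer therefore rank nuclei within a library and are not like populations between libraries. Erythrocyte markers were present in the richer nuclei at 259, 1322, 3315 and 332 CPM. Differences in the mix of nuclei and in RNA per nucleus cannot be told apart. Median UMIs per richer nucleus were 2046 and 2031 in the WT libraries and 1229 and 1147 in the mutant libraries, and median mitochondrial shares were 0.411%, 1.1%, 1.76% and 1.08%. The libraries of a genotype shared 136 (WT) and 133 (mutant) cell barcodes, and none were shared across genotypes. The reason was not tested. Any difference in how the libraries of each genotype were prepared likewise cannot be told apart from genotype.

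The targeted gene, cited4a (ENSDARG00000035990), stood at 164 CPM (156 to 172) in uninjured WT, 62.5 (58.3 to 66.9) in injured WT, 35.1 (30.7 to 40.0) in uninjured mutant and 381 (366 to 397) in injured mutant. It was thus lower in the mutant than in the WT library without injury and higher after injury. The sources used here do not say what pt38a does to the transcript. This level therefore does not verify the genotype labels, and the libraries are named below by their labels alone.

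Summed over the 45 genes, the respiratory chain and ATP synthase made up a similar share of transcripts in all 4 libraries. In the cardiomyocyte-richer nuclei the sum was 1942 CPM (1915 to 1969) in uninjured WT and 2011 (1987 to 2036) in injured WT. It was 2144 (2108 to 2180) in uninjured mutant and 2295 (2257 to 2334) in injured mutant. The 4 counting intervals did not overlap, but the order of WT and mutant depends on the genes counted in the total, as given with the genotype comparison. The median gene lay at 33.0, 40.3, 34.9 and 45.6 CPM, and the highest at 203, 213, 198 and 183 CPM. That highest gene was cox4i1l in every library, at the 96.4th percentile of all genes by its mean of 199 CPM. Next by mean level came atp5fa1 at 144, atp5f1b at 137 and atp5mc3b at 107 CPM.

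**Figure D1:**
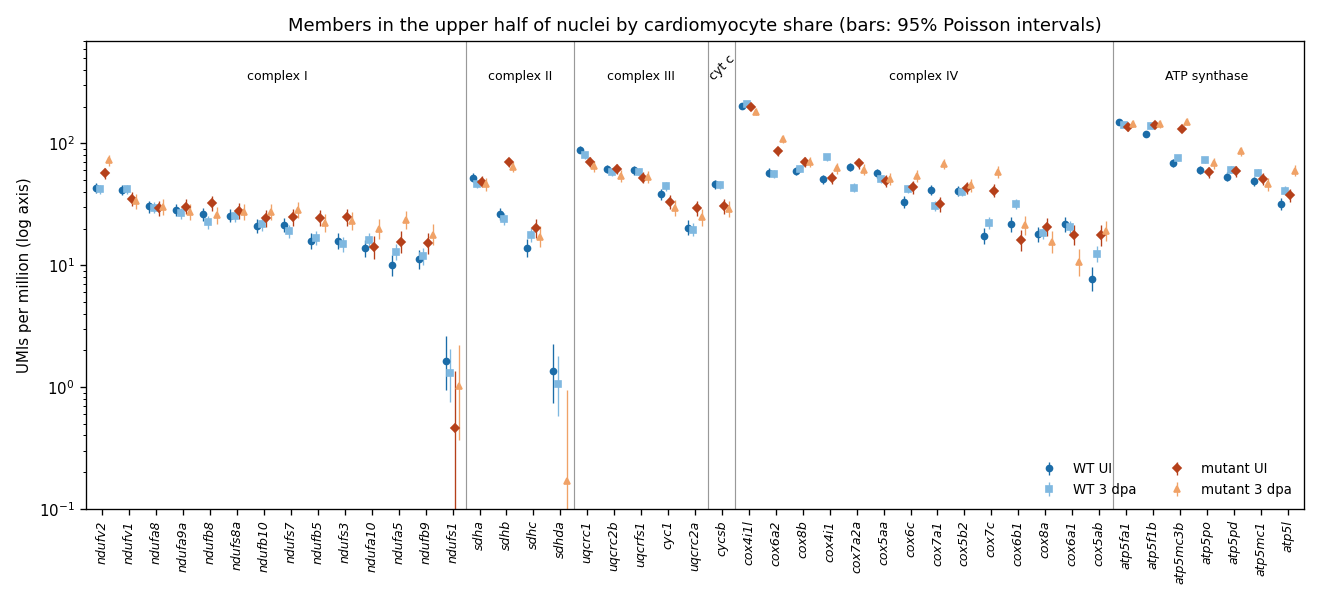
Level of each gene in the cardiomyocyte-richer nuclei (titled upper) of the 4 libraries, on a log axis of CPM, arranged by complex; bars are 95% counting intervals and levels of 0 are not drawn (sdhda in uninjured mutant). Most genes lie between 10 and 100 CPM in all libraries, cox4i1l is at the top, and ndufs1 and sdhda lie far below the rest.

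Complex I, the NADH dehydrogenase that feeds electrons from NADH into the chain, summed to 306 CPM in uninjured WT, 303 in injured WT, 355 in uninjured mutant and 381 in injured mutant. Its 2 highest genes encode neighbouring core subunits of the NADH-binding arm. The iron-sulfur subunit gene ndufv2 (ENSDARG00000013044) read 43.4 CPM (39.5 to 47.6) in uninjured WT, 42.2 (38.7 to 45.8) in injured WT, 56.7 (51.1 to 62.8) in uninjured mutant and 72.5 (65.8 to 79.7) in injured mutant. The NADH-binding flavoprotein gene ndufv1 read 41.7 (37.8 to 45.8), 42.2 (38.7 to 45.8), 34.9 (30.5 to 39.8) and 33.6 CPM in the same libraries. The 2 genes were thus level in WT hearts and apart in the mutant libraries, with ndufv2 higher and ndufv1 lower, the latter with overlapping intervals without injury and adjoining ones after it.

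Among the other complex I genes, the core subunit genes ndufs3, ndufs7 and ndufs8a lay between 14.9 and 28.6 CPM. The accessory subunit genes ndufa5, ndufa8, ndufa9a, ndufa10, ndufb5, ndufb8, ndufb9 and ndufb10 lay between 9.96 and 32.2 CPM. Of these, ndufa5 was lowest in uninjured WT at 9.96 CPM (8.14 to 12.1) and highest in injured mutant at 23.5 (19.8 to 27.8). By contrast, ndufa8 kept to 30.4, 29.7, 29.5 and 30.1 CPM. The core gene ndufs1, which encodes the largest iron-sulfur subunit of the complex, was nearly absent, with 17, 17, 3 and 6 UMIs.

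Complex II, succinate dehydrogenase, also works in the citric acid cycle and has no mitochondrially encoded subunit. Its flavoprotein gene sdha (ENSDARG00000016721) read 52.3 CPM (48.0 to 56.9), 46.3 (42.7 to 50.1), 48.7 (43.5 to 54.4) and 46.3 (40.9 to 52.1) in uninjured WT, injured WT, uninjured mutant and injured mutant. The iron-sulfur subunit gene sdhb (ENSDARG00000075768) read 26.4 (23.4 to 29.7) and 24.1 (21.5 to 26.9) in the WT libraries and 69.9 (63.6 to 76.6) and 64.1 (57.8 to 70.9) in the mutant libraries. The catalytic pair therefore differed: sdha was flat, while sdhb was above sdha in both mutant libraries and below it in both WT libraries. In the cardiomyocyte-poorer nuclei sdhb read 28.0, 24.3, 71.8 and 77.2 CPM, again above sdha in the mutant and below it in the WT libraries. There sdha was not flat, at 53.4 (47.6 to 59.7), 33.9 (29.1 to 39.2), 59.8 (52.9 to 67.3) and 49.5 (43.2 to 56.6) CPM. Of the membrane anchors, sdhc read 13.9, 17.7, 20.1 and 17.2 CPM. The other anchor gene, sdhda, had 14, 14, 0 and 1 UMIs, and its count of 0 in uninjured mutant allows up to 0.464 CPM.

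Complex III, the cytochrome bc1 complex, hands electrons from ubiquinol to cytochrome c. Its core protein gene uqcrc1 (ENSDARG00000052304) read 89.0 CPM (83.3 to 94.9) in uninjured WT, 79.9 (75.1 to 84.9) in injured WT, 70.5 (64.2 to 77.3) in uninjured mutant and 65.1 (58.8 to 71.9) in injured mutant. The Rieske iron-sulfur protein gene uqcrfs1 read 60.1, 58.3, 52.4 and 52.8 CPM, and the cytochrome c1 gene cyc1 read 38.2, 44.4, 33.2 and 29.6. All 3 genes were lower in the mutant libraries in these richer nuclei, with overlapping counting intervals for uqcrfs1 and, without injury, for cyc1. In the cardiomyocyte-poorer nuclei uqcrfs1 read 52.7, 51.7, 66.1 and 82.9 CPM, higher in the mutant libraries. There uqcrc1 read 80.1, 49.8, 62.4 and 66.8, and cyc1 read 33.8, 36.3, 35.4 and 36.8. The second core protein has a pair of copies. In the richer nuclei uqcrc2b read 61.4, 58.4, 61.7 and 54.2 CPM and uqcrc2a read 20.4, 19.6, 29.5 and 24.9.

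Cytochrome c carries electrons from complex III to complex IV. Its gene cycsb (ENSDARG00000044562) read 46.1 CPM (42.0 to 50.4) in uninjured WT, 45.7 (42.1 to 49.5) in injured WT, 30.5 (26.3 to 35.0) in uninjured mutant and 28.9 (24.8 to 33.6) in injured mutant. Within each genotype the values were level, and both mutant values were below both WT values. This gap was not seen in the cardiomyocyte-poorer nuclei, where the 4 values were 44.9, 46.5, 43.4 and 44.5 CPM.

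Complex IV, cytochrome c oxidase, reduces oxygen, and its small nuclear subunits surround a mitochondrially encoded core and adjust its activity. Several exist as tissue-type copies, known in mammals as heart and liver forms. The gene with the highest level, cox4i1l (ENSDARG00000012388), a copy of the subunit 4 gene, read 203 CPM (195 to 212) in uninjured WT, 213 (205 to 221) in injured WT, 198 (187 to 209) in uninjured mutant and 183 (172 to 194) in injured mutant. Its partner cox4i1 read 50.6 (46.3 to 55.1), 76.8 (72.2 to 81.7), 52.2 (46.8 to 58.1) and 62.6 (56.4 to 69.3). Unlike cox4i1l, cox4i1 was higher in the injured than in the uninjured library of both genotypes.

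The heart-type gene cox7a1 (ENSDARG00000069464; muscle form of subunit 7a in mammals) read 41.2 CPM (37.4 to 45.3) in uninjured WT, 30.6 (27.7 to 33.7) in injured WT, 31.8 (27.6 to 36.5) in uninjured mutant and 67.6 (61.2 to 74.6) in injured mutant. In these richer nuclei, injured mutant alone stood above the other 3 libraries. In nuclei with at most 0.5% mitochondrial UMIs, richer and poorer together, cox7a1 read 41.0, 24.7, 21.2 and 44.6 CPM over non-mitochondrial UMIs in the same order. Uninjured WT thus lay near injured mutant there. In the richer nuclei the more general partner of cox7a1, cox7a2a, read 64.1 (59.3 to 69.1), 43.4 (39.9 to 47.1), 68.5 (62.2 to 75.2) and 60.7 (54.6 to 67.3), with injured WT the lowest. The cox7c gene (ENSDARG00000104537), for another small membrane subunit, read 17.3 (14.9 to 20.1), 22.3 (19.8 to 25.0), 41.0 (36.2 to 46.2) and 58.2 (52.2 to 64.7). Its intervals did not overlap between the WT and mutant libraries, nor between the uninjured and injured mutant libraries.

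For subunit 6a, the heart-type gene cox6a2 (ENSDARG00000054588) read 57.7 CPM (53.2 to 62.5), 56.1 (52.2 to 60.3), 86.4 (79.4 to 93.9) and 109 (100 to 117), and cox6a1 read 21.6, 20.6, 17.8 and 10.6. The copies lay farther apart in the mutant libraries in these richer nuclei, where the uninjured genotype ratio of cox6a1 was -0.19 (-0.40 to 0.02). In the poorer nuclei cox6a2 read 58.5 CPM and cox6a1 17.4 in uninjured WT. In uninjured mutant both were higher there, at 73.1 and 30.6. For subunit 5a, cox5aa read 56.9, 51.4, 49.5 and 51.3 CPM and cox5ab read 7.76 (6.16 to 9.64), 12.4 (10.6 to 14.5), 17.6 (14.5 to 21.2) and 19.2 (15.8 to 23.0). Here the major copy was nearly level and the minor copy was lowest in uninjured WT. In nuclei with at most 0.5% mitochondrial UMIs, cox5ab read 7.26, 7.25, 14.2 (12 UMIs) and 9.96 CPM over non-mitochondrial UMIs. The WT libraries were level there. For subunit 8, cox8b read 59.3, 62.0, 70.2 and 70.3 CPM and cox8a 17.9, 18.5, 20.7 and 15.5. The remaining complex IV genes cox5b2, cox6b1 and cox6c lay between 16.1 and 54.3 CPM.

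ATP synthase has a catalytic head of alpha and beta subunits, a membrane rotor ring of c subunits and a stalk that holds them. The alpha subunit gene atp5fa1 (ENSDARG00000010149) was level at 149 CPM (142 to 157) in uninjured WT, 143 (137 to 150) in injured WT, 136 (127 to 145) in uninjured mutant and 145 (136 to 155) in injured mutant. The beta subunit gene atp5f1b (ENSDARG00000070083) read 120 (114 to 127), 140 (133 to 146), 142 (133 to 152) and 145 (135 to 155), lowest in uninjured WT. The c-ring gene atp5mc3b (ENSDARG00000009447) read 69.1 (64.2 to 74.4) and 75.9 (71.3 to 80.8) in the WT libraries and 132 (124 to 141) and 151 (141 to 161) in the mutant libraries. Its partner atp5mc1 encodes the same mature ring protein in mammals, and read 48.9, 57.7, 51.3 and 46.3 CPM with no such step. The stalk genes atp5pd and atp5po and the membrane subunit gene atp5l were highest or next to highest in injured mutant, at 86.3, 68.6 and 59.7 CPM, against 53.1, 60.4 and 31.8 in uninjured WT.

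Injury was compared within each genotype as the log2 ratio of the injured to the uninjured library in the cardiomyocyte-richer nuclei. These nuclei were cut at a different cardiomyocyte share in each library. The sum over the genes differed by 0.05 (0.02 to 0.08) in WT hearts, a fold of 1.04, and by 0.10 (0.06 to 0.13) in mutant hearts, a fold of 1.07. Scaling by TMM takes a weighted, trimmed mean of the gene log2 ratios as unchanged. It turned the WT value to -0.36 and moved the mutant value to 0.36, because that mean was 0.41 and -0.26 between these libraries. Per gene, log2 ratios were taken on CPM + 10, which understates the change of low genes, and 43 of the 45 genes had a mean of 10 CPM or more, ndufs1 and sdhda being the exceptions. The median gene ratio was 0.01 in WT, beside 0.13 over all genes, and 0.02 in the mutant, beside -0.19 over all genes.

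After injury in WT, 0 of the 43 genes were 1.5-fold or more higher and 0 lower, where 15.1% of all tested genes were that much higher and 4.30% lower. In the mutant, 1 gene was higher and 0 lower, where 6.81% of all genes were higher and 17.0% lower. The 1 gene was cox7a1, at a log2 ratio of 0.89 (0.70 to 1.09). In WT the same gene differed by -0.34 (-0.49 to -0.18). Just short of 1.5-fold in WT were cox4i1 at 0.52 (0.39 to 0.65) and cox7a2a at -0.47 (-0.61 to -0.34). In the mutant these were atp5l at 0.56 and atp5pd at 0.48. At most 0.5% mitochondrial UMIs, cox4i1 read 43.2 CPM in uninjured and 46.5 in injured WT, and cox7a2a 69.4 and 48.0, over non-mitochondrial UMIs. By complex, ATP synthase was higher after injury by 0.15 (0.10 to 0.20) in WT hearts and 0.19 (0.13 to 0.25) in mutant hearts, and complex IV by 0.06 (0.01 to 0.10) and 0.13 (0.08 to 0.19), though TMM turned both WT values, to -0.26 and -0.35. Complex III differed by -0.05 (-0.12 to 0.03) in WT hearts and -0.13 (-0.23 to -0.02) in mutant hearts, the latter 0.14 under TMM.

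Genotype was compared as the log2 ratio of the mutant to the WT library of the same treatment. These ratios share their libraries with the injury ratios above, and their nuclei were likewise cut at different cardiomyocyte shares. The summed difference was 0.14 (0.11 to 0.17) without injury, a fold of 1.1, and 0.19 (0.16 to 0.22) after injury, a fold of 1.14. With totals over all genes of each library's own table, an alternative chosen after seeing the data, it was -0.02 (-0.05 to 0.01) without injury and 0.05 (0.02 to 0.08) after injury. Under TMM it was -0.16 and 0.55. The summed level was therefore not shown to differ by genotype without injury. The median gene ratio was 0.09, beside 0.20 over all genes, and 0.14, beside -0.13 over all genes.

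Without injury, 4 genes were 1.5-fold or more higher in the mutant and 0 lower, a share of 9.30%, where 24.7% of all genes were higher and 10.2% lower. They were sdhb at 1.13 (0.96 to 1.30), cox7c at 0.90 (0.71 to 1.09), atp5mc3b at 0.85 (0.72 to 0.98) and cox5ab at 0.64 (0.42 to 0.86). With nuclei limited to at most 1% mitochondrial UMIs, 1 gene was 1.5-fold higher and 3 lower, and cox7c was at 0.49, atp5mc3b at 0.52 and cox5ab at 0.42. With totals over all genes 3 genes were higher and 1 lower, and cox5ab was at 0.53. After injury, 6 genes were higher in the mutant and 0 lower, a share of 14.0%, where 12.6% of all genes were higher and 21.8% lower. These were sdhb at 1.12 (0.95 to 1.29), cox7c at 1.08 (0.91 to 1.25), cox7a1 at 0.94 (0.77 to 1.1), atp5mc3b at 0.91 (0.79 to 1.02), cox6a2 at 0.84 (0.71 to 0.98) and ndufv2 at 0.66 (0.51 to 0.81). Under TMM 14 were higher, and with totals over all genes 5 were higher and 2 lower. The share of all genes past 1.5-fold was not computed under these alternatives. With CPM over shared genes, the share of these genes higher was below the background without injury and near it after injury.

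By complex, the mutant libraries were higher for complex II, by 0.56 (0.43 to 0.69) without injury and 0.52 (0.38 to 0.65) after injury, which followed sdhb. They were lower for cytochrome c, by -0.60 (-0.84 to -0.35) and -0.66 (-0.91 to -0.41). Complex III was lower by -0.12 (-0.21 to -0.03) and -0.20 (-0.29 to -0.11), the latter turning to 0.16 under TMM and 0.02 over all kept nuclei. Complex I was higher by 0.21 (0.14 to 0.29) and 0.33 (0.26 to 0.41), complex IV by 0.13 (0.07 to 0.18) and 0.20 (0.15 to 0.25), and ATP synthase by 0.21 (0.15 to 0.27) and 0.25 (0.19 to 0.30). TMM turned the 3 uninjured values, to -0.09, -0.18 and -0.09. Totals over all genes turned complex IV without injury to -0.04, and gave 0.05 for complex I and 0.04 for ATP synthase without injury and 0.19, 0.06 and 0.11 for complexes I and IV and ATP synthase after it. On that total complex II was still at 0.40 and 0.38, complex III at -0.29 and -0.34 and cytochrome c at -0.76 and -0.80.

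**Figure D2:**
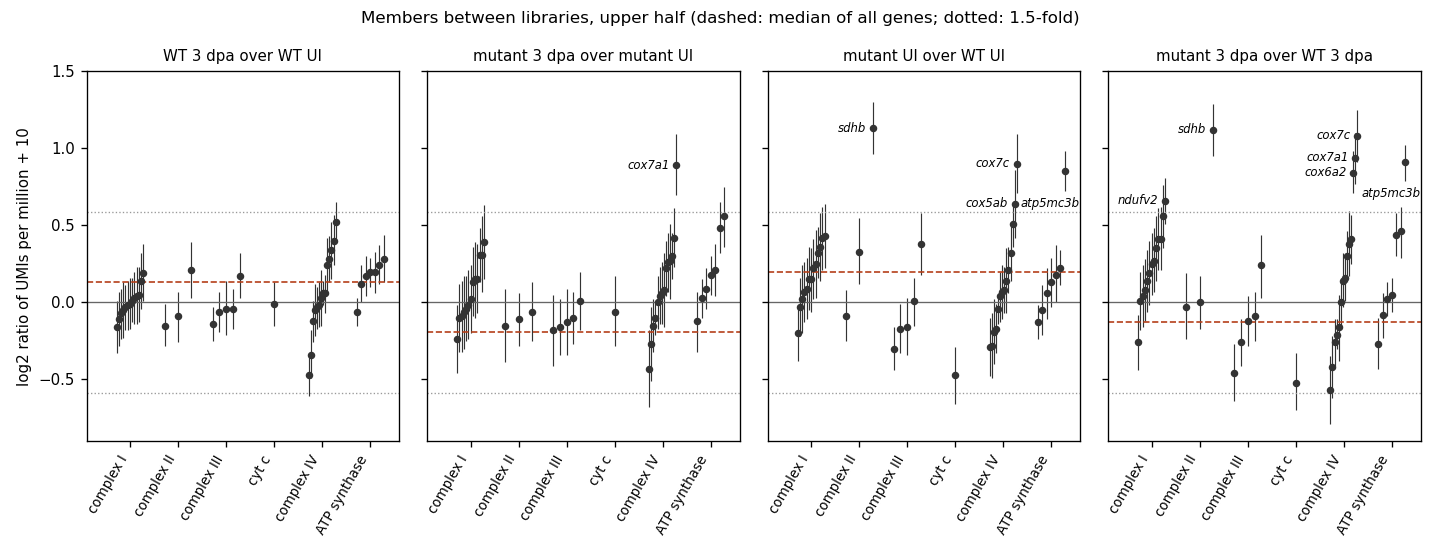
Log2 ratio of each gene, on CPM + 10, in the 4 between-library comparisons, by complex; each point is 1 of 43 genes, bars are counting intervals, dotted lines mark 1.5-fold and the dashed line is the median of all genes. Few points lie outside the lines, with cox7a1 at 0.89 for injury in the mutant and sdhb at 1.13 and 1.12 for genotype.

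On the CPM scaling, the cardiomyocyte-richer and cardiomyocyte-poorer nuclei held similar shares of these transcripts in uninjured WT. The richer ones held more in injured WT, and the poorer ones held more in the mutant libraries. In the poorer nuclei the sum was 1923 CPM (1887 to 1959) in uninjured WT, 1795 (1759 to 1831) in injured WT, 2309 (2265 to 2353) in uninjured mutant and 2958 (2907 to 3009) in injured mutant. The log2 ratio of richer to poorer was 0.01 (-0.02 to 0.05), 0.16 (0.13 to 0.20), -0.11 (-0.14 to -0.07) and -0.37 (-0.40 to -0.33) in these libraries. TMM, whose weighted, trimmed means were -0.18 to -0.80, gave 0.40, 0.96, 0.30 and -0.18. It turned the uninjured mutant value and put the richer nuclei higher in 3 libraries. On the CPM scaling injured WT had the richer nuclei higher and both mutant libraries had them lower. The nuclei were also put in 5 equal groups by cardiomyocyte share, with CPM over non-mitochondrial UMIs, unlike the sums above. In uninjured WT the group of lowest share was below the other groups, at 1454 CPM against 1906 to 2076. In injured WT it was so too, at 1455 against 1968 to 2524. It was not the lowest in the mutant libraries, at 2172 against 2123 to 2598 in uninjured mutant and 3767 against 2235 to 2788 in injured mutant. The poorer nuclei had the higher median mitochondrial share in every library, 0.894%, 2.17%, 2.69% and 1.65%.

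In uninjured WT, 0 genes were 1.5-fold higher and 0 lower in the richer nuclei, where 0.779% of all genes were higher and 19.5% lower. In injured WT, 3 genes were higher and 0 lower, where 12.3% of all genes were higher and 34.7% lower. These were cox4i1l at 1.18 (1.06 to 1.31), cox7a2a at 0.76 (0.56 to 0.96) and uqcrc1 at 0.59 (0.42 to 0.75). In nuclei limited to 1% mitochondrial UMIs these were at 0.49, 0.45 and 0.40, so that no gene passed 1.5-fold, while under TMM 24 did. The share of all genes past 1.5-fold was not computed under either setting, so these counts have no background beside them. In uninjured mutant, 0 were higher and 1 lower, ndufb9 at -0.63 (-0.88 to -0.38), where 5.68% of all genes were higher and 23.6% lower. In injured mutant, 0 were higher and 1 lower, cox7c at -0.60 (-0.78 to -0.42), where 0.0640% of all genes were higher and 11.2% lower. Both lower genes were at 0.01 in nuclei with at most 1% mitochondrial UMIs. In injured mutant 41 of the 43 genes were below 0, beside 6441 of 9373 over all genes. Their median was -0.30, beside -0.12 over all genes.

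The pairs of copies shared out their transcripts unevenly, and for subunits 4 and 5a the richer and poorer nuclei were farthest apart in injured WT. Of the UMIs of cox4i1l and cox4i1 together, cox4i1l held 80.1%, 73.5%, 79.1% and 74.5% in the richer nuclei of uninjured WT, injured WT, uninjured mutant and injured mutant. In the poorer nuclei it held 73.7%, 48.3% (45.1 to 51.4), 67.8% and 65.8%. In injured WT cox4i1l itself went from 213 CPM in the richer to 88.0 (80.3 to 96.4) in the poorer nuclei, while cox4i1 went from 76.8 to 94.4. The cox5aa share of its pair was likewise 88.0%, 80.5%, 73.7% and 72.8% in the richer and 82.3%, 64.5%, 68.3% and 66.4% in the poorer nuclei, lower in the poorer nuclei of each library.

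The heart-type copies of subunits 6a, 7a and 8 followed another order. The cox6a2 share was 72.7% and 73.2% in the WT and 82.9% and 91.1% in the mutant libraries, in the richer nuclei, and 77.0%, 73.1%, 70.5% and 90.9% in the poorer nuclei, where uninjured mutant was the lowest. The cox7a1 share was 39.1%, 41.3% and 31.7% in the first 3 libraries and 52.7% (49.1 to 56.3) in injured mutant, so that cox7a1 passed cox7a2a there alone. In the poorer nuclei it also did so in injured WT, at 57.2%, beside 60.3% in injured mutant. The cox8b share was 76.8%, 77.0%, 77.2% and 82.0%. For the c ring, a pair compared after its values were seen, atp5mc3b held 58.6% and 56.8% in the WT and 72.1% and 76.6% in the mutant libraries. These sources do not say how reads shared by similar copies were assigned, and the effect of the counting reference on these shares was not tested.

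**Figure D3:**
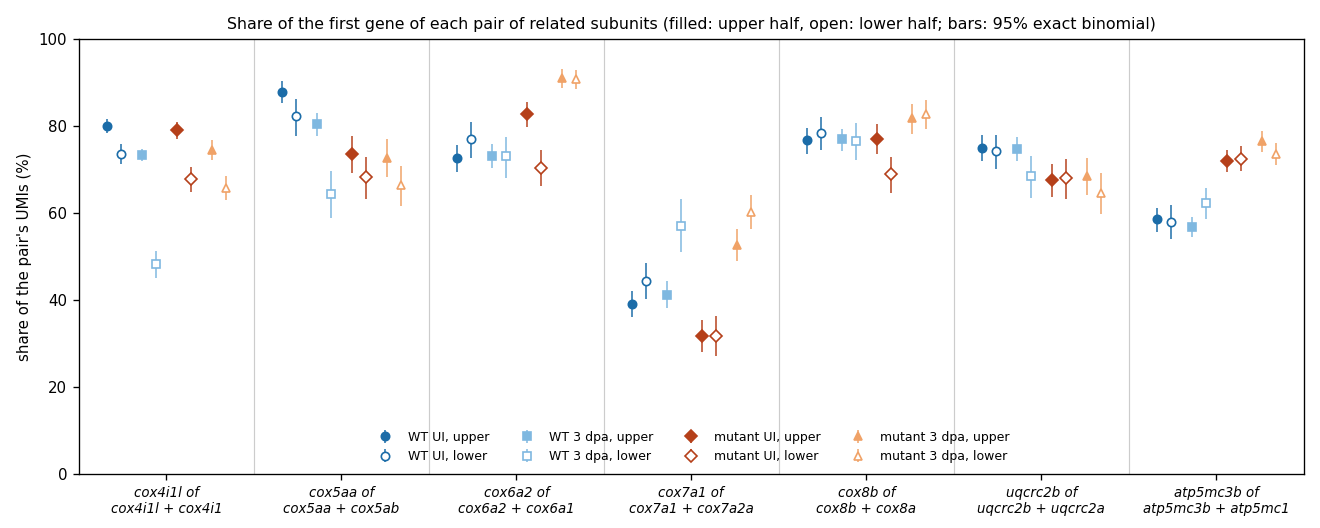
Share of the UMIs of each pair of gene copies that came from the copy named first, in percent, in cardiomyocyte-richer (upper, filled) and cardiomyocyte-poorer (lower, open) nuclei of the 4 libraries with 95% counting intervals. The cox4i1l share drops to 48.3% in the poorer nuclei of injured WT, and the cox7a1 share is above that of cox7a2a in the richer nuclei of injured mutant alone.

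The mitochondrially encoded subunits differed more between libraries than the nuclear ones did. Their transcripts are made and kept outside the nucleus, so they are not nuclear RNA. Over all barcodes of each matrix, the 13 mt- genes summed to 8186 CPM in uninjured WT, 19230 in injured WT, 62157 in uninjured mutant and 17479 in injured mutant. The 45 nuclear genes summed to 1949, 2045, 2800 and 3036 CPM over the same barcodes. There were thus 4.20, 9.40, 22.2 and 5.76 mitochondrial UMIs for each nuclear one. Uninjured mutant stood apart from the other 3 libraries, and 18383 of its 35484 barcodes had over 5% mitochondrial UMIs. The barcode sets were unlike: 19868 barcodes of uninjured mutant and 2704 of injured mutant had under 500 UMIs, and none of the WT barcodes did. In the kept cardiomyocyte-richer nuclei the mt- genes summed to 5574, 11182, 19252 and 10997 CPM. Uninjured mutant was again the highest, by a narrower margin.

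Over all barcodes, the ratios of mitochondrial to nuclear UMIs kept this order of libraries within each complex that has both kinds of subunit. The mt- sums did not in complex III, where injured mutant was above injured WT. In complex IV, mt- genes gave 4723, 11126, 36825 and 10008 CPM beside 694, 716, 954 and 1092 for the nuclear genes, ratios of 6.81, 15.5, 39 and 9.17. In complex III the mitochondrial cytochrome b gene mt-cyb gave 921, 2226, 8022 and 2456 CPM, 3.52, 8.93, 27.0 and 8.77 times the nuclear sum. Complex I had ratios of 4.53, 11.1, 20.4 and 5.55, and ATP synthase 2.10, 3.96, 9.74 and 2.40. The single mt- gene mt-co2, for a catalytic subunit of complex IV, reached 16444 CPM in uninjured mutant, more than all 45 nuclear genes summed in any library. Kept nuclei in the cardiomyocyte-richer group still differed in mt- levels, with log2 ratios of 1.00 for injury in WT, -0.81 for injury in the mutant, 1.79 for genotype without injury and -0.02 for genotype after injury.

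**Figure D4:**
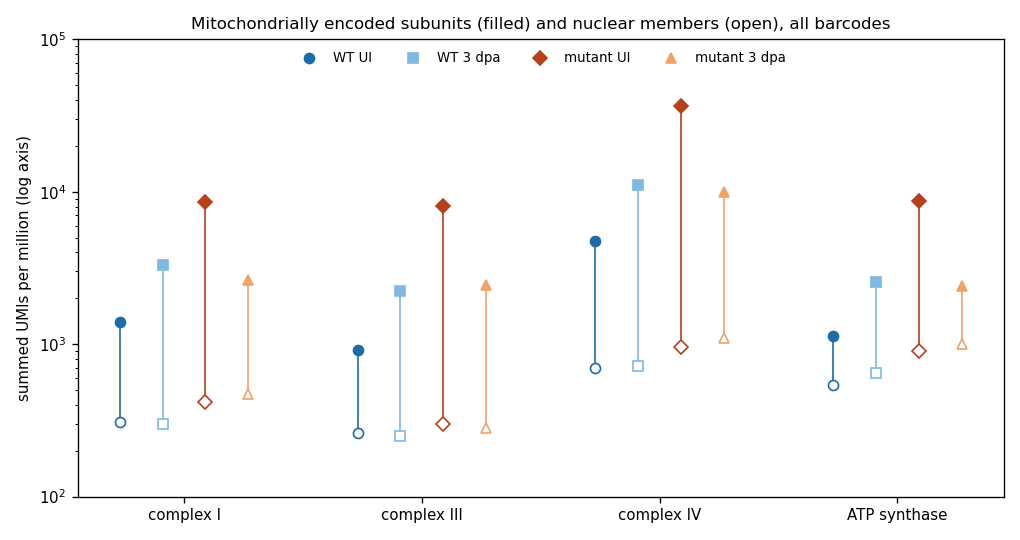
Summed CPM over all barcodes of mitochondrially encoded (filled) and nuclear encoded (open) subunits of complexes I, III and IV and ATP synthase in the 4 libraries, on a log axis. In complex IV the mitochondrial sums span 4723 to 36825 CPM and the nuclear sums 694 to 1092 CPM.

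Within every library, the nuclear genes took a larger share of the non-mitochondrial UMIs in barcodes with more mitochondrial UMIs, up to a mitochondrial share of 10%. This description was added after the data were seen. In injured mutant they gave 1877 CPM at a mitochondrial share of at most 0.5%, 2128 from 0.5% to 1%, 2674 from 1% to 2% and 4461 (4361 to 4563) from 2% to 5%. The 484 barcodes from 5% to 10%, left out elsewhere, gave 11213 (10818 to 11619). The other libraries climbed less from the lowest band to the band of 2% to 5%, from 1878 to 2545 CPM in uninjured WT, 1608 to 2687 in injured WT and 1788 to 2594 in uninjured mutant. The share of the 5 cardiomyocyte genes ran the other way in every library, from 6.01% to 3.11%, 5.20% to 2.54%, 2.97% to 2.22% and 3.90% to 2.72% in uninjured WT, injured WT, uninjured mutant and injured mutant. Cytosolic ribosomal protein genes, which mark translated cytosolic mRNA of many cell types, went from 5327 to 24937, 7877 to 33782, 8531 to 29376 and 5765 to 33472 CPM over the same bands. Median UMIs per barcode differed between bands as well, from 2091 to 738 in uninjured WT and from 2144 to 626 in injured mutant. The part of cytosolic RNA, of depth or of cell type in this relation was not tested.

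**Figure D5:**
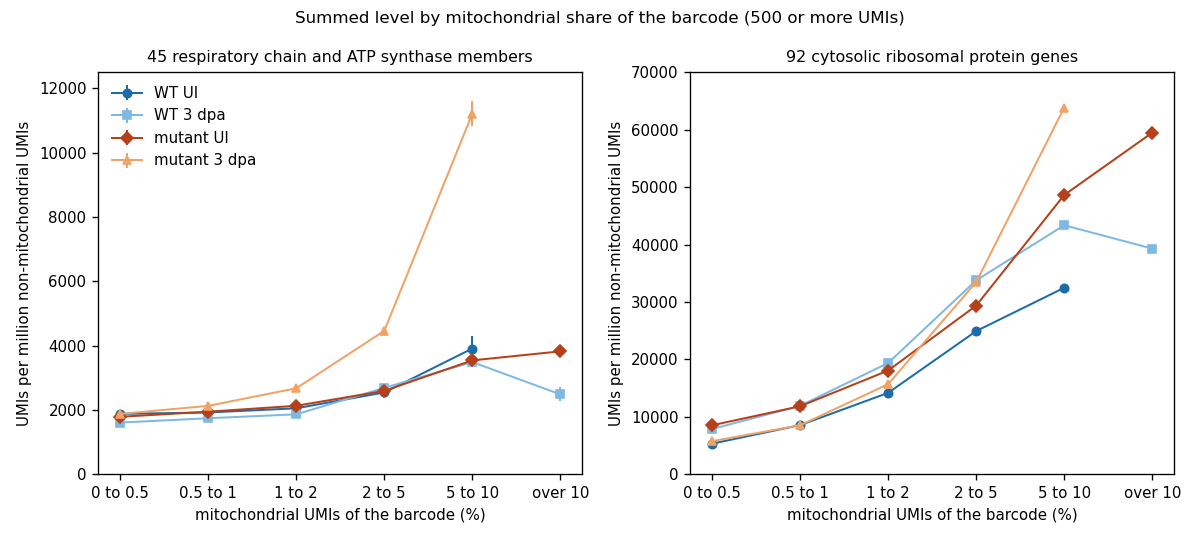
Summed CPM of the 45 nuclear genes (left) and of 92 cytosolic ribosomal protein genes (right) among non-mitochondrial UMIs of barcodes with 500 or more UMIs, by band of each barcode's mitochondrial share, for the 4 libraries with counting intervals. All lines climb over the first 4 bands; on the left injured mutant climbs most, where the sum goes from 1877 to 4461 CPM and reaches 11213 from 5% to 10%.

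As a log2 ratio, the band of 2% to 5% exceeded the band of at most 0.5% by 0.44 (0.37 to 0.50) in uninjured WT, 0.74 (0.70 to 0.78) in injured WT, 0.54 (0.46 to 0.62) in uninjured mutant and 1.25 (1.19 to 1.30) in injured mutant. With 1000 or more UMIs per nucleus the values were 0.67, 0.65, 0.40 and 1.36, and within the cardiomyocyte-richer nuclei 0.66, 1.03, 0.39 and 1.27. In uninjured WT, 13 of 43 genes were 1.5-fold higher and 0 lower, where 32.8% of all genes were higher and 11.1% lower, so the share of 30.2% was near the background. In injured WT, 23 genes (53.5%) were higher and 1 lower, beside 32.4% and 11.6% of all genes. In uninjured mutant, 20 (46.5%) were higher and 1 lower, beside 23.4% and 4.74%. In injured mutant, 34 (79.1%) were higher and 0 lower, beside 24.8% and 3.70%.

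The genes did not move alike across these bands. The 10 genes 1.5-fold higher in all 4 libraries were cox4i1, cox6c, cox7c, atp5f1b, atp5mc3b, atp5pd, atp5po, atp5l, ndufa5 and ndufb9, and 7 genes were 1.5-fold higher in none. The shares of all genes higher in all 4 libraries or in none were not computed, so these counts have no background beside them. Of those 7, cox7a2a was lower by that much in injured WT, at -0.69, and ndufv2 in uninjured mutant, at -0.59. The small complex IV gene cox7c went from 14.3 to 53.4 CPM in uninjured WT, 13.9 to 44.9 in injured WT, 18.9 to 62.7 in uninjured mutant and 38.1 to 183 in injured mutant. The beta subunit gene atp5f1b went from 107 to 197, 97.3 to 229, 93.2 to 213 and 102 to 347. The abundant cox4i1l went the other way in 3 libraries, from 202 to 155, 195 to 169 and 215 to 158 CPM, and from 185 to 214 in injured mutant, while cox4i1 was higher by 1.21, 1.39, 0.99 and 1.44. The complex I gene ndufv2 differed by -0.42, -0.36, -0.59 and -0.15.

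By complex, ATP synthase had the widest steps in 3 libraries, 0.81, 1.17, 0.80 and 1.59 on the log2 scale, and cytochrome c in injured mutant, at 1.68. Complex I differed by 0.22, 0.55, 0.28 and 0.98, complex III by 0.13, 0.32, 0.38 and 0.85 and complex IV by 0.40, 0.61, 0.46 and 1.25.

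Other genes of the pathway were read from lists. Of 68 further listed subunits, 45 had a row and 38 passed the level filter. Their median log2 ratios were 0.07 and 0.16 for injury in WT and mutant, and 0.24 and 0.25 for genotype without injury and after injury. Without injury 2 (5.26%) were 1.5-fold higher in the mutant and 1 lower, beside 24.7% and 10.2% of all genes. After injury 7 (18.4%) were higher and 0 lower, beside 12.6% and 21.8% of all genes, among them ndufb7 at 0.89, ndufb3 at 0.79 and atp5meb at 0.75. For the assembly factors, which build the complexes, 17 of 44 with a row passed, with medians of -0.12, -0.10, 0.00 and 0.08. Without injury 1 (5.88%) was 1.5-fold higher in the mutant and 2 (11.8%) lower, beside 24.7% and 10.2% of all genes. After injury 1 was higher and 1 lower, 5.88% each, beside 12.6% and 21.8%. The higher gene was timmdc1, a complex I assembly factor, by 0.70 and 0.66.

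Some regulators of mitochondrial biogenesis differed widely between libraries. Of 23 such genes 16 passed, with medians of -0.17, -0.04, -0.20 and -0.12 in the same 4 comparisons. For injury in WT 0 were 1.5-fold higher and 3 (18.8%) lower, beside 15.1% and 4.30% of all genes. In the mutant 1 (6.25%) was higher and 0 lower, beside 6.81% and 17.0%. For genotype without injury 0 were higher and 4 (25.0%) lower, beside 24.7% and 10.2%. After injury 2 were higher and 2 lower, 12.5% each, beside 12.6% and 21.8%. The nuclear receptor gene esrra, a known activator of respiratory genes, stood at 651 CPM in uninjured WT, 252 in injured WT, 102 in uninjured mutant and 136 in injured mutant. The coactivator gene ppargc1a was at 1368 CPM in uninjured WT, 1227 in injured WT, 1001 in uninjured mutant and 2660 in injured mutant, so that it was higher in injured mutant by 1.40 against uninjured mutant and 1.11 against injured WT. Beside these steps, the summed subunits of the cardiomyocyte-richer nuclei differed by at most 0.19 on the CPM scaling in any of the 4 comparisons. Over all kept nuclei the sums were 1935, 1949, 2212 and 2577 CPM in uninjured WT, injured WT, uninjured mutant and injured mutant. There the genotypes lay farther apart after injury. Whether the subunits followed these regulators was not tested.

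Citric acid cycle and fatty acid oxidation genes, which supply the electrons, had medians of 0.04, -0.11, 0.17 and -0.02 over 35 that passed. For injury in the mutant 0 were 1.5-fold higher and 7 (20.0%) lower, beside 6.81% and 17.0% of all genes. For genotype without injury 11 (31.4%) were higher in the mutant and 2 (5.71%) lower, beside 24.7% and 10.2% of all genes, led by the fatty acid oxidation genes cpt1ab at 1.26, acadm at 1.1 and etfa at 1.09. The richer nuclei exceeded the poorer ones by 0.23, 0.72, 0.31 and 0.00 for the sum of these genes in uninjured WT, injured WT, uninjured mutant and injured mutant, and by 0.41, 1.34, 0.57 and 0.25 for the biogenesis regulators, beside 0.01, 0.16, -0.11 and -0.37 for the subunits. Cytosolic ribosomal protein genes differed by 1.11 and -0.62 for injury in WT and mutant, and by 1.18 and -0.56 for genotype without injury and after injury.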

How the data were processed

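The deposited files are gene by barcode matrices of UMI counts, produced with Cell Ranger 7.0.0 per the file headers; GRCz11, Seurat 4.3.0 and R 4.2.0 are also named in the submitters' processing notes. The authors' matrices were filtered by barcode to a different degree: 19868 barcodes of uninjured mutant and 2704 of injured mutant had under 500 UMIs and none of the WT barcodes did. Total UMIs were 16447437, 20202133, 24511414 and 12984219 in uninjured WT, injured WT, uninjured mutant and injured mutant. Matrices were assigned to groups by name, and samples within a group could not be separated.

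From the counts, CPM, exact Poisson intervals, exact conditional binomial intervals of ratios of sums and exact binomial intervals of shares were computed with Python 3.11.15 and scipy 1.17.1, at 95%. UMIs are counted molecules, and the intervals cover counting error only. Gene ratios used CPM + 10 among genes with a mean of 10 CPM or more, and 1.5-fold (0.58 on the log2 scale) was the size named. With 1 matrix per group no p-value was computed. Genes named with values by rule were the 2 highest of each complex and the pairs of copies. Those past 1.5-fold with 20 or more UMIs in either library were also named, at most 5 in each direction. A sixth (ndufv2) and others near the limit were added after their values were seen. Further genes outside the rule, among them ndufa5, ndufa8, sdhc, uqcrfs1, cyc1 and atp5po, were given with their values known. In other lists, at most 3 in each direction were named. Members and lists were chosen with earlier results of these data known. Doublets were not removed: scrublet (scanpy 1.11.5) marked 0, 1, 0 and 0 nuclei, which does not work as a call, so the 6% of highest score were left out as an alternative. Calculations were tested on simulated data. Other alternatives changed the nuclei, filters, pseudocount, scaling and the genes in the total. Sequences were not analysed here.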

Additional observations from a re-analysis of the deposited data

Results flagged for a closer look

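The muscle-type complex IV gene cox7a1 had injury ratios of opposite sign in the 2 genotypes. Its log2 ratio of injured to uninjured was -0.34 (-0.49 to -0.18) in WT hearts and 0.89 (0.70 to 1.09) in mutant hearts, each from 1 library per group, and the difference was not tested. Of the 43 genes, 16 had ratios of opposite sign, and cox7a1 was the 1 gene with both counting intervals clear of 0. The medians over all genes were also of opposite sign, 0.13 in WT and -0.19 in the mutant. The share of all genes with ratios of opposite sign was not computed. In the cardiomyocyte-poorer nuclei cox7a1 read 44.9, 28.8, 29.0 and 89.1 CPM in uninjured WT, injured WT, uninjured mutant and injured mutant, again highest in injured mutant. By band of mitochondrial share, CPM were taken over non-mitochondrial UMIs. At most 0.5%, cox7a1 read 41.0, 24.7, 21.2 (18 UMIs) and 44.6 CPM, with uninjured WT near injured mutant. From 2% to 5% it read 65.8, 41.9, 40.1 and 141 CPM. The log2 ratios between these bands were 0.57, 0.58, 0.68 and 1.47, so the level in injured mutant depended most on the band. Over the alternatives the mutant injury ratio lay between 0.63 and 1.11.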

How the results depend on the processing

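The summed log2 differences are small, and most depend on the setting. In the order injury in WT, injury in the mutant, genotype without injury and genotype after injury, all kept nuclei gave 0.01, 0.22, 0.19 and 0.40, and nuclei of 1000 or more UMIs gave -0.00, 0.02, 0.08 and 0.11. A limit of 1% mitochondrial UMIs gave -0.04, -0.01, 0.04 and 0.07, and TMM gave -0.36, 0.36, -0.16 and 0.55. A mean over nuclei gave 0.33, 0.19, 0.25 and 0.11. Totals over all genes of each table, chosen after seeing the data, gave 0.05, 0.13, -0.02 and 0.05. With a limit of 10%, injury in WT was 0.13 and genotype without injury 0.22. With 1 median for the 4 matrices, injury in WT was 0.00 and genotype after injury 0.24.

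For richer over poorer nuclei, in the order uninjured WT, injured WT, uninjured mutant and injured mutant, the limit of 1% gave -0.03, 0.28, 0.06 and -0.15, and TMM 0.40, 0.96, 0.30 and -0.18. Nuclei of 1000 or more UMIs gave -0.09 in uninjured WT, 0.00 in uninjured mutant and -0.18 in injured mutant. The common median gave 0.21, 0.04 and -0.42 in uninjured WT, injured WT and injured mutant. The limit of 10% gave 0.22, -0.20 and -0.41 in the last 3 libraries. The mean over nuclei gave 0.11 in uninjured WT and 0.31 in injured WT.

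Some sums by complex reversed. For injury in WT, complex IV became -0.01 over all kept nuclei and -0.35 under TMM, and ATP synthase -0.00 at 1000 UMIs, -0.05 at 1% and -0.26 under TMM. For injury in the mutant, complex I became -0.04 at 1% and complex III 0.14 under TMM. For genotype without injury, TMM gave -0.09 for complex I, -0.18 for complex IV and -0.09 for ATP synthase, and totals over all genes gave -0.04 for complex IV. After injury, complex III became 0.02 over all kept nuclei and 0.16 under TMM. Richer over poorer, complex III in uninjured WT became -0.06 at 1000 UMIs and -0.01 at 1%. In uninjured mutant, complex I became 0.03, 0.05 and 0.30 at 1000 UMIs, at 1% and under TMM, complex II 0.05, 0.18 and 0.25, and ATP synthase 0.08 at 1% and 0.22 under TMM. At 1%, ndufb9 in uninjured mutant and cox7c in injured mutant both became 0.01. The causes were not tested.

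Over the alternatives, named genotype ratios kept their sign: sdhb lay between 0.89 and 1.37 without injury and 0.99 and 1.40 after it, cox7c between 0.49 and 1.19 and 0.96 and 1.35, and atp5mc3b between 0.52 and 1.03 and 0.76 and 1.23.

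Counts of genes past 1.5-fold were small in the main setting and moved with the setting. The share of all genes was not computed for the alternatives, so the counts below have no background beside them. For injury in WT (0 higher) the mean over nuclei gave 9, a pseudocount of 1 gave 2 and the 10% limit 1, and for lower (0) all kept nuclei gave 1 and TMM 2. For injury in the mutant (1 higher) all kept nuclei, TMM and the mean over nuclei gave 4, the common median 3, and the 1% limit and pseudocount 1 gave 2; 1 lower appeared over all kept nuclei and at pseudocount 1. For genotype without injury (4 higher) the 1% limit gave 1, TMM 2 and pseudocount 1 gave 7, and lower (0) became 3 at 1% and 1 with the common median, 1000 UMIs, TMM and totals over all genes. After injury (6 higher) TMM gave 14, and lower (0) became 3 at 1%, 2 at pseudocount 1, without the highest doublet scores and with totals over all genes, and 1 at 1000 UMIs and with the mean over nuclei. Richer over poorer, higher counts became 5 with the common median in uninjured WT (0), 0 at 1%, 24 under TMM and 5 at pseudocount 1 in injured WT (3), and 1 at 10% and under TMM in uninjured mutant (0). Lower counts ranged from 0 to 4 in uninjured mutant (1) and from 0 to 7 in injured mutant (1), and reached 1 at pseudocount 1 in injured WT (0).

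Across the mitochondrial bands, 1000 or more UMIs gave 0.67, 0.65, 0.40 and 1.36 and the richer nuclei 0.66, 1.03, 0.39 and 1.27, alternatives chosen after seeing the data. No paired analysis was possible because each group is 1 matrix. Low counts limit what can be read from ndufs1 and sdhda, with at most 17 UMIs per library in the richer nuclei.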
